A study of Mus musculus with 15 samples.

Results

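Complement is a cascade of plasma and tissue proteins that tags material for uptake by phagocytes and calls immune cells. C1q binds a target and starts the classical pathway, C4 and C2 form the enzyme that cleaves C3, and the fragments C3a and C5a signal through receptors on myeloid cells. In brain, microglia are the main source of C1q, and C1q and C3 take part in the marking of synapses for removal. The account covers 7 complement genes. C1qa, C1qb and C1qc encode the A, B and C chains of C1q. C3 is the central component, and C4b is a mouse C4 gene with a neighbouring copy, C4a. C3ar1 and C5ar1 encode the receptors for C3a and C5a. The 7 genes were chosen by symbol, and all are among the 13834 genes of the deposited table.

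RNA was sequenced from microglia sorted by flow cytometry from mouse brain, in 15 libraries of 4 groups. The PLX5622 libraries (n = 4) came from 18-month-old mice that had received PLX5622, which blocks the CSF1 receptor, a receptor that microglia need to survive. The AF-high (n = 5) and AF-low (n = 3) libraries came from untreated 18-month-old mice, from microglia of high or low autofluorescence, the light emitted without a dye. The young libraries (n = 3) came from untreated 3-month-old mice. The labels give no strain, sex, dose or schedule, and no autofluorescence gate for the PLX5622 and young cells. The PLX5622 and young cells may therefore differ from the AF-high and AF-low cells in gate as well. AF-high and AF-low together are called untreated old below (n = 8), and their difference from another group uses the mean of both group means. Levels are in TPM (transcript abundance scaled for transcript length and to a like total in each library). Comparisons of levels between genes are rough, since the cDNA was amplified and uneven amplification was not tested. Differences are in log2(TPM + 1) ± SE from limma, adjusted by Benjamini-Hochberg over the 13175 genes tested, and called at an adjusted p under 0.05. The titles call the libraries biological replicates. Nothing says whether each came from 1 animal or a pool, or whether any mouse gave both an AF-high and an AF-low library. The tests treat all 15 libraries as independent, and can weigh a difference only against the scatter among the libraries at hand.

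All 12 microglial markers checked were in the table, and their summed level was 9300 to 9991 TPM in PLX5622 libraries, 8645 to 13011 TPM in AF-high libraries, 7077 to 9823 TPM in AF-low libraries and 10883 to 12581 TPM in young libraries. Some libraries stood apart. AF-high 2 and AF-high 3 had 5.376% and 7.657% mitochondrially encoded transcripts, against 1.571% to 2.698% in the other libraries. They also had the highest microglial sums, at 13011 and 12974 TPM. AF-low 1 had 134.4 TPM of summed endothelial markers, against 31.15 to 73.63 TPM in the other libraries, and the lowest microglial sum (7077 TPM). Young 1 and young 2 had 243.5 and 269.8 TPM of summed astrocyte markers, against 78.3 to 149 TPM in the other libraries, and 8745 and 5764 TPM of summed choroid plexus markers, most of it Ttr, against 31.6 to 368 TPM. In bulk RNA, fewer cells of a type and less RNA per cell cannot be told apart.

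The C1q genes lie side by side on chromosome 4, all on the minus strand of GRCm38: C1qb at 136880129 to 136886187, C1qc at 136889804 to 136893065 and C1qa at 136895917 to 136898803 (GENCODE M21). C3 (57203970 to 57228136) and C4b (34728380 to 34743882) are on chromosome 17, C3ar1 is on chromosome 6 (122847138 to 122856161) and C5ar1 on chromosome 7 (16246743 to 16259540), and no exon of another annotated gene overlaps theirs. The windows below, from RefSeq on GRCm38.p6, are shown to set genes of C1q, the members with the highest levels, beside C3, the member with the lowest. Each is written 5′ to 3′ on the minus strand and ends 1 base before the first start annotated in RefSeq or GENCODE. Capitals mark GGAAGT or its reverse complement ACTTCC. It is a longer form of GGAA, the core that ETS-family factors, among them the macrophage regulator PU.1, are known to bind. The motif was chosen after the sequences were seen, so a contrast between the windows is no test.
C1qb, chr4:136886201-136886450: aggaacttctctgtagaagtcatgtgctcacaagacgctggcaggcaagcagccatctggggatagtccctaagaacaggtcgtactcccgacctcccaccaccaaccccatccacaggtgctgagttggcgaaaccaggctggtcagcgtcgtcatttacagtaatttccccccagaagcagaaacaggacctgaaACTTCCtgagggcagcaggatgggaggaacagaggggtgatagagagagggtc
C1qc, chr4:136893066-136893164: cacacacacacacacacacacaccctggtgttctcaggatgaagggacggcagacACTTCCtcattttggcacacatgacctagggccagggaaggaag
C3, chr17:57228137-57228386: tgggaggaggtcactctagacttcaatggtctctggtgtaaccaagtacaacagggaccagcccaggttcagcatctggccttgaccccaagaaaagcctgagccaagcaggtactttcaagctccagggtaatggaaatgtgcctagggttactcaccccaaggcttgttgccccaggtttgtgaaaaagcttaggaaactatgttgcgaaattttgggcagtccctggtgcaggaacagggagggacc
The C1qb and C1qc windows each held 1 match, whose first base lay 53 and 44 bases before the start, and the C3 window held 0. The shorter core GGAA also occurs in lower case in each of these windows, that of C3 included. Over whole windows of 250 bases before to 50 after the start, searched on both strands, 23.8% of 32851 mouse promoters held the motif; the C5ar1 window held 2 matches and the C3ar1 window 0. Promoters of C1qa and C4b were not used here.

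Most of the complement signal was C1q. The summed level of C1qa, C1qb and C1qc was 4557 to 7422 TPM over the 15 libraries, or 0.5667% ± 0.0874 of the library (SD). C1qb averaged 2864 TPM and ranked 25th of all genes by mean level, C1qc averaged 1671 TPM (rank 65) and C1qa 907 TPM (rank 139). The receptors followed, with C3ar1 at 525.9 TPM and C5ar1 at 214 TPM, and the later components were near the low end, with C4b at 7.045 TPM and C3 at 1.884 TPM. Exceptions to this order within a library were C1qa below C3ar1 in AF-high 3, C3ar1 below C5ar1 in AF-high 2 and C4b below C3 in PLX5622 3.

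**Figure D1:**
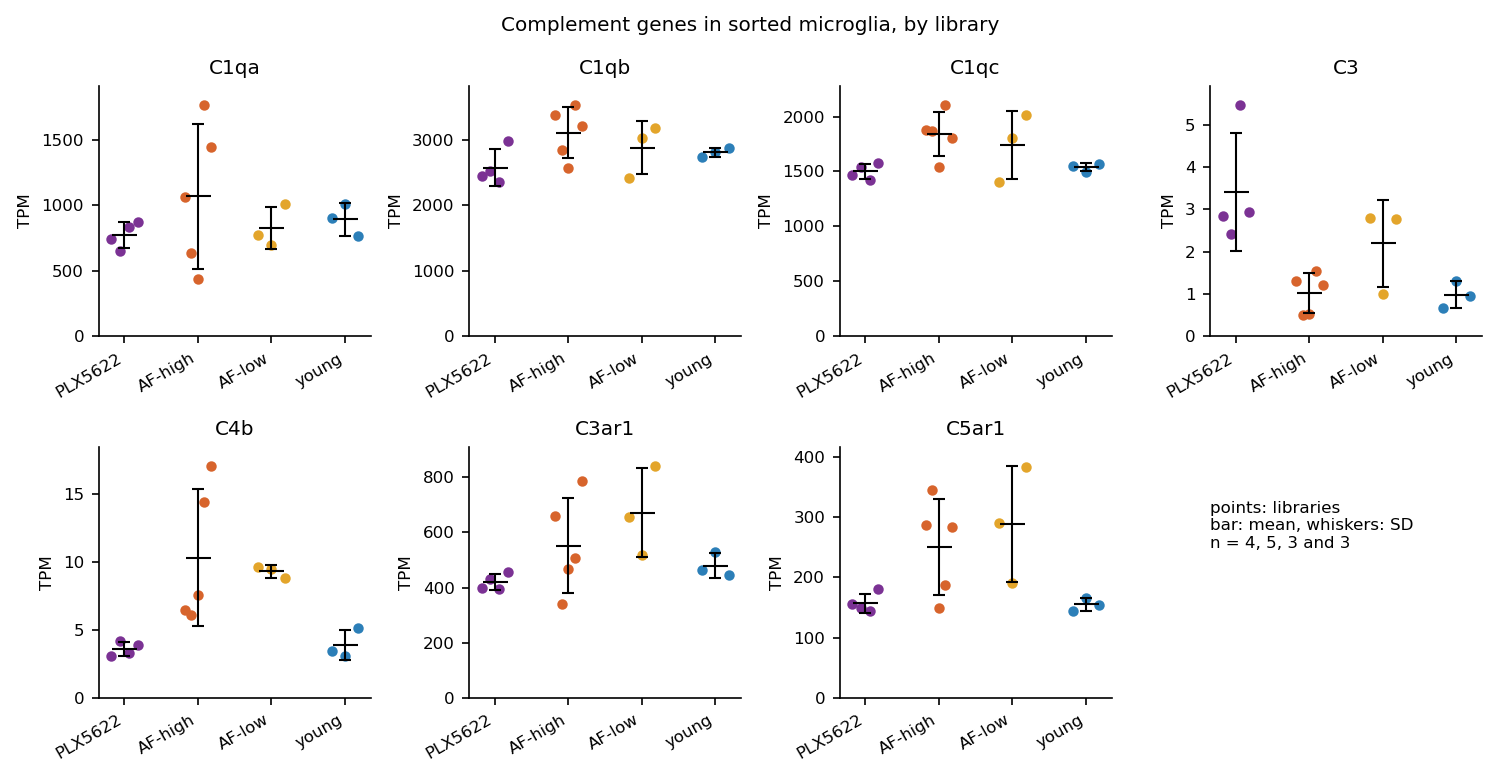
TPM of the 7 complement genes by group (y axes start at 0 and differ in scale); points are libraries, bars means and whiskers SD. C4b lay at 3.092 to 4.185 TPM in PLX5622 and 6.097 to 17.07 TPM in untreated old libraries, C3 was above 2.4 TPM in all PLX5622 libraries, and the C1q genes overlapped between all groups.

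Over the 8 comparisons, 1 call was made among the 7 genes: C4b fell in PLX5622 relative to untreated old microglia, where 1.36% of all tested genes were called. The other comparisons had 0 of 7 called by limma. The share of all genes called was 0.63% for PLX5622 against AF-high, 0.144% for PLX5622 against AF-low, 0.0911% for PLX5622 against young, 0.182% for untreated old against young, 0.0455% for AF-low against young, and 0% for both AF-high against young and AF-high against AF-low. At an unadjusted p under 0.05 there were 5 of the 7 genes for PLX5622 against untreated old (16.7% of all genes), 4 for PLX5622 against AF-high (15.3%) and 3 for PLX5622 against AF-low (14.3%). By that measure 2 genes stood in each of untreated old against young (12.3% of all genes), AF-high against young (11%) and AF-low against young (11.8%), and 1 in each of PLX5622 against young (5.23%) and AF-high against AF-low (8.21%). The median log2 difference of the 7 genes was -0.24 for PLX5622 against untreated old (-0.03 over all genes) and 0.31 for untreated old against young (-0.06 over all genes). For PLX5622 against young it was -0.07 where all genes had a median of -0.11, so that small differences in that comparison are best read against -0.11.

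**Figure D2:**
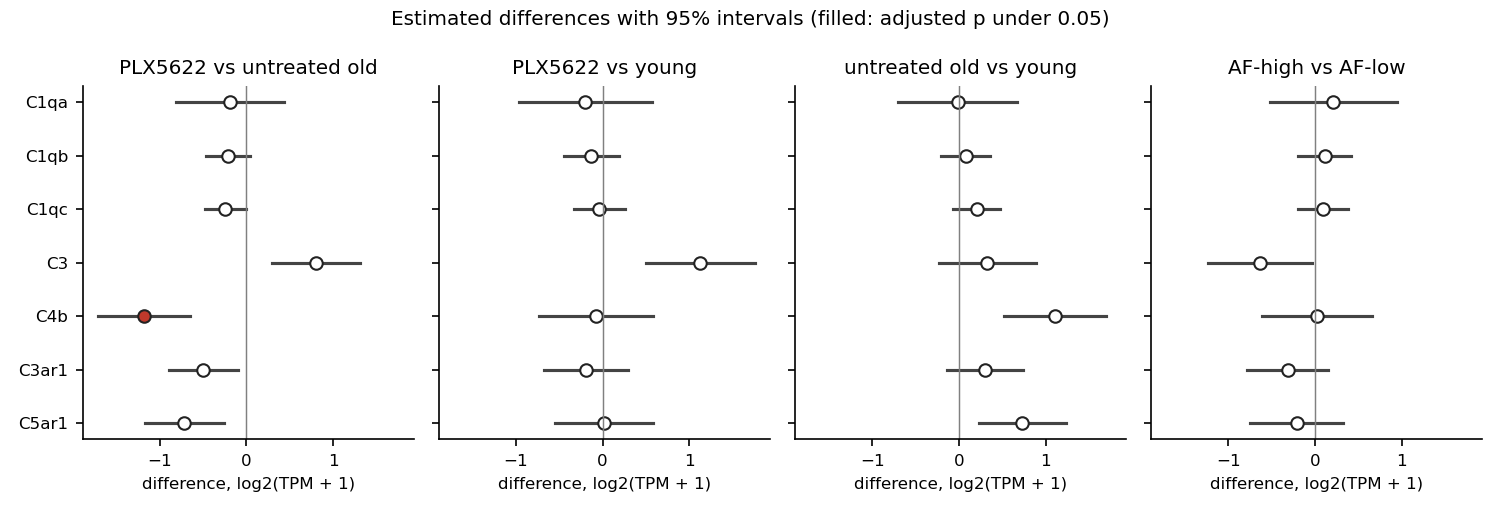
Differences in log2(TPM + 1) with 95% intervals for the 7 genes in 4 comparisons, the first-named group minus the second; the filled point passed the test. C4b stands at -1.18 in PLX5622 against untreated old, at 1.11 in untreated old against young and near 0 in the other panels, and C3 stands above 0 in both PLX5622 panels.

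C1q starts the classical pathway by binding antibody, dying cells or tagged synapses. C1qb was at 2444, 2531, 2353 and 2983 TPM in PLX5622 libraries, 3381, 2854, 2578, 3543 and 3216 TPM in AF-high, 2422, 3034 and 3184 TPM in AF-low and 2743, 2819 and 2878 TPM in young. The groups overlapped, and the young libraries lay closest together, with an SD of 67.54 TPM. C1qc was at 1469, 1541, 1423 and 1573 TPM in PLX5622, 1878, 1872, 1545, 2110 and 1807 TPM in AF-high, 1404, 1802 and 2011 TPM in AF-low and 1554, 1499 and 1571 TPM in young libraries. AF-high was the highest group on average for all 3 chains, and none of the 3 was called in any comparison of the model reported.

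For PLX5622 against untreated old, C1qb differed by -0.21 ± 0.12 (95% interval -0.47 to 0.04, adjusted p = 0.395) and C1qc by -0.24 ± 0.11 (-0.48 to -0.0014, adjusted p = 0.297). For untreated old against young the differences were 0.08 ± 0.13 for C1qb (-0.20 to 0.36, adjusted p = 0.859) and 0.20 ± 0.12 for C1qc (-0.06 to 0.47, adjusted p = 0.543). Between AF-high and AF-low they were 0.11 ± 0.14 and 0.09 ± 0.13 (adjusted p = 0.864 and 0.882). The intervals for these 2 chains thus reach at most 0.48 below and 0.47 above 0 in these comparisons. They reached further below 0 for PLX5622 against AF-high. There C1qb differed by -0.27 ± 0.13 (-0.55 to 0.0094, adjusted p = 0.34) and C1qc by -0.29 ± 0.12 (-0.55 to -0.03, adjusted p = 0.274).

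C1qa was the least even of the C1q genes. It was at 741.6, 650.9, 834.3 and 872.8 TPM in PLX5622, 1065, 634.2, 434.7, 1769 and 1448 TPM in AF-high, 769.2, 699.8 and 1011 TPM in AF-low and 898.9, 1011 and 765.2 TPM in young libraries. The AF-high libraries held both the lowest and the highest values of all, with a coefficient of variation of 51.7% against 12.6% for C1qb and 11% for C1qc in the same libraries. The lowest were AF-high 2 and AF-high 3, the libraries with the high mitochondrial share; the part of that share in the C1qa level was not tested. C1qa differed by -0.19 ± 0.29 for PLX5622 against untreated old (adjusted p = 0.799), -0.01 ± 0.32 for untreated old against young (adjusted p = 0.991) and 0.21 ± 0.34 for AF-high against AF-low (adjusted p = 0.899). When the old libraries that stood apart (AF-high 2 and 3 and AF-low 1, described above) were set aside, C1qa was called lower in PLX5622 than in AF-high (-0.86, adjusted p = 0.0439), and its difference between untreated old and young was 0.29.

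The chains of C1q are made in equal number in the protein. At the RNA level C1qb made up 52.83% ± 2.25 of the summed C1q transcripts, C1qc 30.84% ± 2.12 and C1qa 16.33% ± 3.72 (SD over 15 libraries). C1qc over C1qb was 0.586 ± 0.039 in PLX5622, 0.594 ± 0.0401 in AF-high, 0.602 ± 0.0269 in AF-low and 0.548 ± 0.0173 in young libraries, so the ratio varied little within or between groups. C1qa over C1qb was 0.302 ± 0.0403, 0.331 ± 0.142, 0.289 ± 0.0502 and 0.317 ± 0.0472 in the same groups, with values of 0.1686 to 0.4994 in AF-high. After removal of group means, C1qb and C1qc correlated at r = 0.862 over the 15 libraries, C1qa and C1qb at 0.69 and C1qa and C1qc at 0.548. These are descriptions over libraries that share their RNA, amplification and depth.

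**Figure D3:**
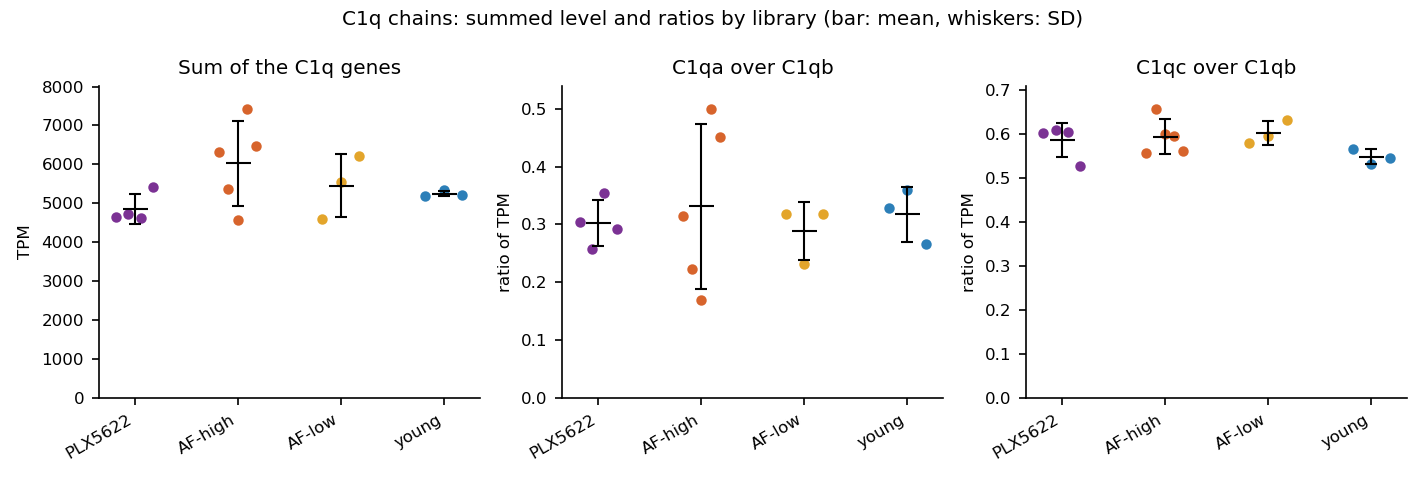
Summed TPM of the C1q genes and the TPM ratios C1qa over C1qb and C1qc over C1qb by group; points are libraries, bars means and whiskers SD. C1qc over C1qb stayed between 0.5274 and 0.6561 in all 15 libraries, whereas C1qa over C1qb ran from 0.1686 to 0.4994, both within AF-high.

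C4b encodes the component that C1q-bound proteases cleave, and whose fragment attaches to targets. It was at 3.092, 4.185, 3.26 and 3.866 TPM in PLX5622 libraries, 6.426, 6.097, 7.585, 14.45 and 17.07 TPM in AF-high, 9.656, 9.499 and 8.79 TPM in AF-low and 3.436, 3.089 and 5.166 TPM in young libraries. Every untreated old library was above every PLX5622 and every young library, and PLX5622 and young libraries overlapped. Within AF-high, libraries 4 and 5 were far above the other 3, whereas the AF-low libraries lay within 1 TPM of each other.

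C4b was lower by 1.18 ± 0.25 on the log2 scale in PLX5622 than in untreated old microglia (difference -1.18, limma adjusted p = 0.0392), with means of 3.601 ± 0.5122 TPM (n = 4) and 9.947 ± 3.882 TPM (SD, n = 8). Non-overlap in this direction was found for 2.32% of all genes. Against each gate alone the difference was -1.19 ± 0.27 (AF-high, adjusted p = 0.0556; 4.18% of all genes lower without overlap) and -1.17 ± 0.31 (AF-low, adjusted p = 0.132). For untreated old against young it was 1.11 ± 0.28 (95% interval 0.52 to 1.70, adjusted p = 0.123), with a young mean of 3.897 ± 1.113 TPM, and non-overlap in this direction was found for 1.47% of all genes. AF-high and young differed by 1.12 ± 0.30 (adjusted p = 0.185; 2.63% of all genes higher without overlap) and AF-low and young by 1.10 ± 0.33 (adjusted p = 0.213). PLX5622 and young differed by -0.07 ± 0.31 (95% interval -0.73 to 0.59, adjusted p = 0.995), and AF-high and AF-low by 0.02 ± 0.30 (-0.61 to 0.65, adjusted p = 0.988). Both values are close to 0, but their intervals allow differences of more than 0.5 either way.

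The call for C4b rested on a narrow margin. It held in 6 of 15 fits that each left out 1 library and was lost without AF-low 1 or 3 (adjusted p = 0.0702 and 0.0624), any young library (0.0529 to 0.0562) or any PLX5622 library (0.0794 to 0.179), while the difference stayed between -1.25 and -1.08. It was also lost with only the groups compared in the fit (adjusted p = 0.0758) and with young 1 and 2 set aside (0.0763). Of the letter runs of length 31 in the longest coding C4b transcript, 48.8% also occur in C4a, its neighbouring copy, which has no line in the table. Reads from both genes could therefore be counted under C4b, and its level is uncertain to that extent. The other members shared at most 0.493% with any other gene. C4b was also low in PLX5622 (3.092 to 4.185 TPM) and young libraries (3.089 to 5.166 TPM). The reads behind such values may be few, and their counting error is unknown.

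Summed markers of macrophages at the borders of the brain, in meninges and around vessels, were higher in untreated old than in PLX5622 and young libraries, as was C4b. Their summed level over 10 of 10 markers was 78.9 to 108 TPM in PLX5622 libraries, 168 to 290 TPM in AF-high libraries, 275 to 433 TPM in AF-low libraries and 118 to 144 TPM in young libraries. The highest of them, Dab2, an endocytic adaptor, was at 35.72 to 54.98 TPM in PLX5622 libraries, 62.96 to 170.3 TPM in AF-high libraries, 97.45 to 285.9 TPM in AF-low libraries and 55.72 to 71.38 TPM in young libraries. In AF-high 1 to 5 the marker sum was 289.6, 168.6, 168.5, 183.5 and 267.2 TPM. C4b was at 6.426, 6.097, 7.585, 14.45 and 17.07 TPM in the same order. In AF-low 1 to 3 the sum was 432.8, 275 and 333.2 TPM, and C4b 9.656, 9.499 and 8.79 TPM. The part of these cells in the C4b result was not tested. Astrocytes and oligodendrocytes are known to express C4b; their summed markers overlapped between PLX5622 and untreated old libraries. Summed astrocyte markers (7 of 9 in the table) were at 78.3 to 94.9 TPM in PLX5622 libraries, 88.4 to 149 TPM in AF-high libraries, 86.2 to 95.3 TPM in AF-low libraries and 99.3 to 270 TPM in young libraries. Summed oligodendrocyte markers (5 of 7) were at 56.6 to 69 TPM in PLX5622 libraries, 44.5 to 85.1 TPM in AF-high libraries, 53.7 to 83.8 TPM in AF-low libraries and 66.3 to 89.3 TPM in young libraries. Gfap and Mog, which define mature astrocytes and oligodendrocytes, had no line in the table used here. A gene at 0 TPM in any library has none, so their levels are unknown.

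**Figure D4:**
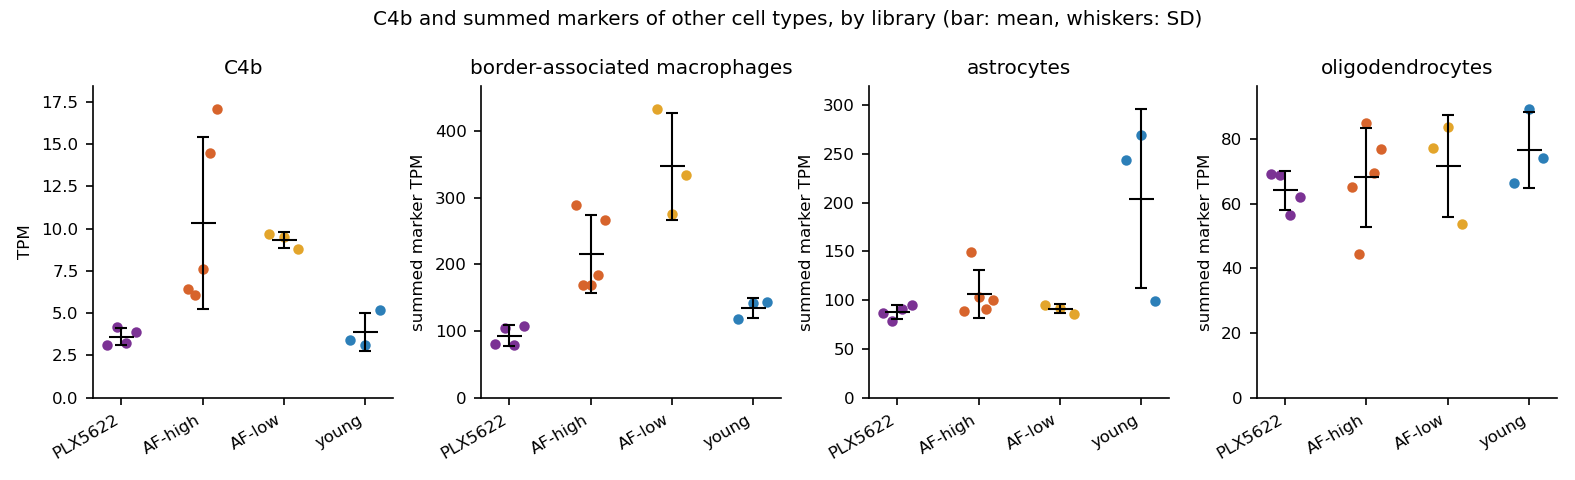
TPM of C4b and summed TPM of the markers of 3 other cell types by group; points are libraries, bars means and whiskers SD, and y axes start at 0. C4b and the border-associated macrophage sum were both lowest in PLX5622 and young libraries, the astrocyte sum was highest in young 1 and 2 (243.5 and 269.8 TPM), and the oligodendrocyte sum overlapped between groups.

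C3 is the component on which all pathways converge; microglia at rest express little of it. It was at 2.831, 2.415, 5.473 and 2.934 TPM in PLX5622, 1.309, 0.5043, 0.5334, 1.549 and 1.207 TPM in AF-high, 2.789, 1.004 and 2.778 TPM in AF-low and 0.6747, 1.311 and 0.9421 TPM in young libraries. PLX5622 libraries were all above the AF-high and young libraries, and 2 of the AF-low libraries reached the PLX5622 range. The means were 3.413 ± 1.392 TPM in PLX5622, 1.02 ± 0.4746 TPM in AF-high, 2.19 ± 1.027 TPM in AF-low and 0.9758 ± 0.3193 TPM in young (SD, n = 4, 5, 3 and 3).

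C3 was the only one of the 7 genes with a positive difference between PLX5622 and untreated old (0.80 ± 0.24, limma adjusted p = 0.106). The difference was 1.11 ± 0.26 against AF-high (adjusted p = 0.0604), 0.48 ± 0.29 against AF-low (adjusted p = 0.484) and 1.13 ± 0.29 against young (adjusted p = 0.293). It did not pass the test in any of these. Non-overlap with C3 higher was also found for AF-high (2.37% of all genes) and young (3.28%) as the group set against PLX5622. AF-high was below AF-low by a difference of -0.63 ± 0.28 (adjusted p = 0.578), and AF-high and young differed by 0.01 ± 0.28 (adjusted p = 0.993). At levels of 0.5 to 6 TPM the reads behind a value may be few; TPM keeps no depth, so its counting error is unknown, and a log2(TPM + 1) difference understates the change. With array weights, C3 was called higher in PLX5622 against AF-high and against young (adjusted p = 0.0436 and 0.014), and leaving out AF-high 4 or AF-low 2 also gave a call against AF-high (adjusted p = 0.0459 and 0.0423).

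C3ar1 and C5ar1 encode receptors through which C3a and C5a act on microglial movement and cytokine release. C5ar1 was at 155, 149.2, 143.3 and 180.1 TPM in PLX5622, 286.7, 345.9, 149.8, 186.5 and 283.3 TPM in AF-high, 290.5, 190.6 and 383.9 TPM in AF-low and 143.9, 166.3 and 154.5 TPM in young libraries. PLX5622 and young libraries lay close together, AF-low libraries were above all of both, and AF-high 3, and to a lesser degree AF-high 4, came near or within that range. C3ar1 was at 398.1, 429.2, 393.7 and 454.8 TPM in PLX5622, 659, 341.6, 466, 506.6 and 785.8 TPM in AF-high, 656, 518.9 and 841.2 TPM in AF-low and 464.2, 529.3 and 444.3 TPM in young libraries. For C3ar1 AF-low was above PLX5622 without overlap, AF-high spanned nearly the whole range, and all other pairs of groups overlapped.

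C5ar1 differed by -0.72 ± 0.21 for PLX5622 against untreated old (limma adjusted p = 0.103), with means of 156.9 ± 16.2 TPM (n = 4) and 264.6 ± 82.03 TPM (SD, n = 8). For untreated old against young, whose mean was 154.9 ± 11.22 TPM, it differed by 0.73 ± 0.24 (adjusted p = 0.216). PLX5622 and young differed by 0.02 ± 0.26 (95% interval -0.54 to 0.58, adjusted p = 0.999) and AF-high and AF-low by -0.21 ± 0.25 (adjusted p = 0.857). C3ar1 differed by -0.50 ± 0.19 for PLX5622 against untreated old (adjusted p = 0.191), 0.31 ± 0.21 for untreated old against young (adjusted p = 0.585) and -0.31 ± 0.22 for AF-high against AF-low (adjusted p = 0.723). Neither receptor passed the test in any comparison of this model. C3ar1 was called lower in PLX5622 against untreated old with array weights (-0.65, adjusted p = 0.0177) and with AF-high 2 and 3 and AF-low 1 set aside (-0.64, adjusted p = 0.0493). In PLX5622 against AF-low, C3ar1, C5ar1 and C4b were lower without overlap, as were 10.9% of all genes. In AF-low against young, C4b and C5ar1 were higher without overlap, as were 8.25% of all genes.

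The receptor levels varied more within untreated old cells than within the other groups. The coefficient of variation of C5ar1 was 32% in AF-high and 33.5% in AF-low, against 10.3% in PLX5622 and 7.25% in young libraries, and that of C3ar1 was 31.4%, 24.1%, 6.84% and 9.28% in the same order. With weights that let each group have its own variance, C5ar1 was called lower in PLX5622 against untreated old (adjusted p = 0.0289) and higher in untreated old against young (adjusted p = 0.0479), and C4b was called in both as well (adjusted p = 0.013 and 0.0322). Leaving out AF-high 3 or AF-low 2 also gave a call for C5ar1 in PLX5622 against untreated old (adjusted p = 0.0411 and 0.0371), and leaving out AF-low 2 gave one against AF-low (adjusted p = 0.0448). C4b and C5ar1 thus had like differences between groups, but among libraries of a group they did not vary together (r = -0.164 after removal of group means, over 15 libraries). The summed border-associated macrophage markers given above for C4b stood in the same order of groups as the mean C3ar1 level, and as that of C5ar1 apart from a lower sum in PLX5622 than in young; their part in the receptor levels was not tested. Of the monocyte and neutrophil markers, which other C5a-responsive cells carry, 3 of 9 were in the table, and their sum was 224 to 270 TPM in PLX5622 libraries, 206 to 359 TPM in AF-high libraries, 224 to 323 TPM in AF-low libraries and 236 to 268 TPM in young libraries. Nearly all of it was Csf3r (201 to 354.2 TPM in AF-high), a cytokine receptor that microglia also express.

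The remaining complement system was sparsely represented in the deposited table. That table holds no gene at 0 TPM in any library, so absence from it is no measure of a gene's level. Of 58 other genes listed from general knowledge, 27 were in the table and 26 were tested. Of the terminal components that form the lytic pore, 1 of 7 was in the table, C6, with a highest value of 0.6105 TPM. Of the lectin list 3 of 9 were tested, among them the scavenger lectin Colec12 (mean 10.64 TPM) and the proteases Masp1 (5.526 TPM) and Masp2 (1.481 TPM). Of the other classical components 2 of 6 were tested, the C3 convertase subunit C2 (7.906 TPM) and the protease C1ra (0.6872 TPM), and of the alternative pathway 2 of 3, properdin (Cfp, 5.528 TPM) and factor B (Cfb, 3.006 TPM). The regulators, of which 9 of 20 were tested, ran from low to high, with C4bp at 1.319 TPM, Csmd2 at 1.512 TPM, Sez6l2 at 2.355 TPM and Cd46 at 3.732 TPM on average. Crry (Cr1l), the rodent membrane inhibitor of C3 cleavage, was at 156.8 ± 8.188 TPM in PLX5622, 131.3 ± 17.91 TPM in AF-high, 141.5 ± 37.26 TPM in AF-low and 163.5 ± 17.54 TPM in young libraries, and untreated old libraries overlapped both other groups. Csmd3 averaged 228.1 TPM. Among receptors and C1q binders, Lair1, an inhibitory receptor for collagens and C1q, averaged 584.5 TPM, Itgam 452 TPM and calreticulin (Calr) 303 TPM.

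Of these 26 genes, 1 was called in any comparison: Itgax, the alpha chain of complement receptor 4, rose in untreated old against young microglia (1.53 ± 0.27, limma adjusted p = 0.0355; 0.182% of all genes called). It was at 6.292 to 20.13 TPM in untreated old libraries (n = 8) and 2.916, 2.956 and 2.83 TPM in young. In PLX5622 it was at 14.32, 10.75, 7.455 and 10.05 TPM, above every young library, as were 3.28% of all genes. The difference from young was 1.55 ± 0.30 (adjusted p = 0.0641). Unlike the C4b values, those of Itgax in PLX5622 overlapped the untreated old values. The young Itgax values were low, and their counting error is unknown, as for C3. The Itgax call was lost without AF-high 5, AF-low 1 or 3, any young library or PLX5622 2, 3 or 4 (adjusted p = 0.0552 to 0.276). It was also lost with a pseudocount of 5 (adjusted p = 0.0564), with only the groups compared in the fit (0.145), with AF-high 2 and 3 and AF-low 1 set aside (0.0545) and with young 1 and 2 set aside (1). Itgam, the alpha chain of complement receptor 3, was at 362.2, 420.1, 321.5 and 365.1 TPM in PLX5622 and 427.7 to 661.6 TPM in untreated old libraries, with no overlap. The difference was -0.46 ± 0.12 (adjusted p = 0.0678), and 2.32% of all genes were lower without overlap. Itgam was called lower in PLX5622 with array weights (adjusted p = 0.0264), with weights by group (0.0289) and without AF-high 1 (0.0417). The untreated old libraries were also above the young ones for Itgam, which averaged 402.8 ± 11.17 TPM in young (0.32 ± 0.13, adjusted p = 0.331). In that direction 1.47% of all genes did not overlap. By count, 11 of 26 genes had positive and 15 negative differences for PLX5622 against untreated old, with a median of -0.03 that equals the median of all genes.

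C5ar2, another C5a receptor, C4bp and Clu are named here after their values were seen. C5ar2 was at 29.6 ± 4.087 TPM in PLX5622 and 41.15 ± 6.353 TPM in untreated old libraries (-0.47 ± 0.14, limma adjusted p = 0.112), against 30.38 ± 2.58 TPM in young. The regulator C4bp went the other way, at low levels and with overlap. It was at 1.903 ± 0.4358 TPM in PLX5622 and 1.028 ± 0.2583 TPM in untreated old libraries (0.52 ± 0.16, limma adjusted p = 0.116). Masp1, a protease of the lectin pathway, was at 3.404 to 9.607 TPM in untreated old and 2.495 to 2.96 TPM in young libraries (0.93 ± 0.27, adjusted p = 0.175). Clu, a fluid-phase inhibitor made by astrocytes, was at 0.2298 to 4.944 TPM in untreated old libraries and at 77.76, 66.25 and 3.307 TPM in young 1, 2 and 3 (adjusted p = 0.0785). Its high values were in the 2 young libraries with high astrocyte and choroid plexus markers; Clu is itself 1 of the 9 astrocyte markers, and the part of these cells was not tested.

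**Figure D5:**
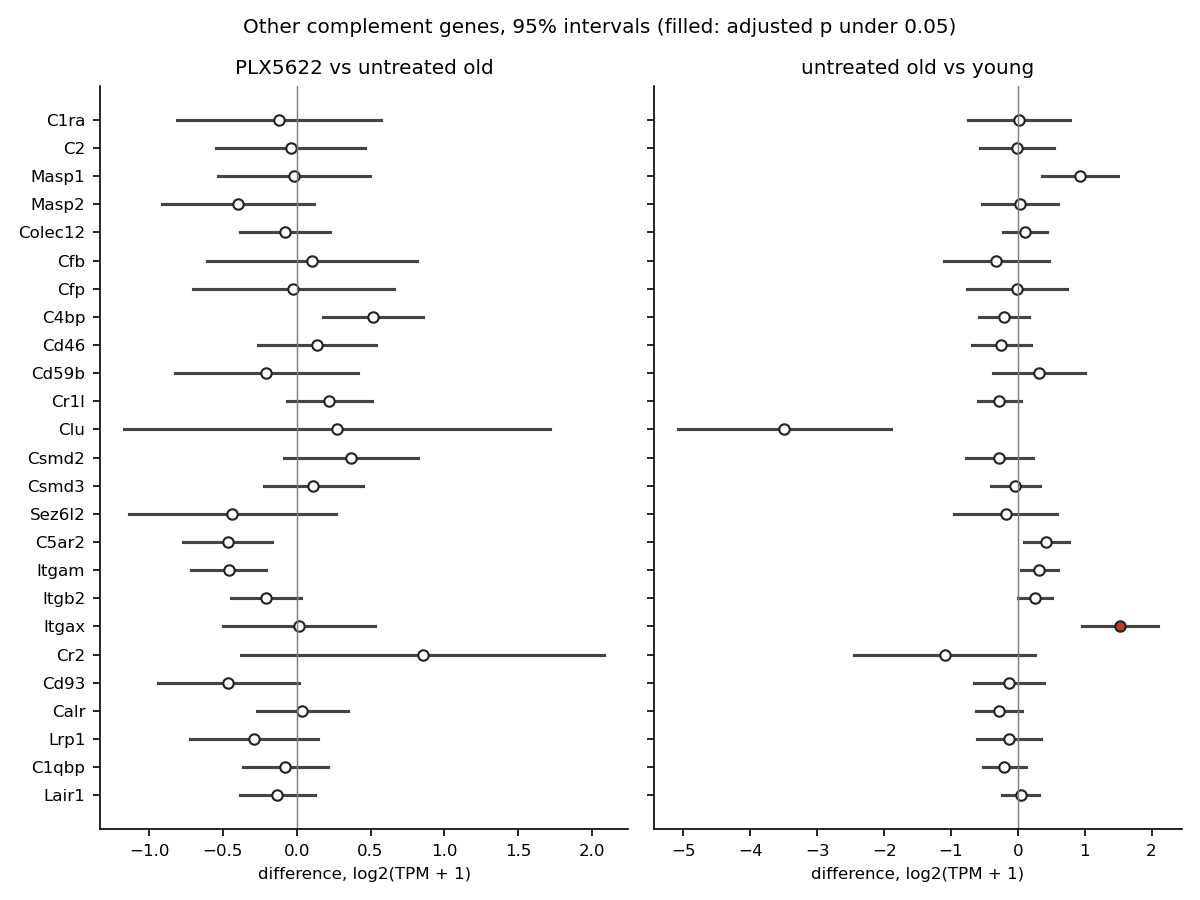
Differences in log2(TPM + 1) with 95% intervals for other complement genes tested, the first-named group minus the second, in both panels; x axes differ in scale. Itgax at 1.53 in untreated old against young is the single filled point, Clu at -3.49 has the widest interval in that panel, and most other intervals include 0.

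Genes whose log2(TPM + 1) pattern over the 15 libraries was closest to each member were ranked by Pearson correlation among 9134 genes with a mean of at least 5 TPM. For the mean of the C1q genes the closest were the processed pseudogene AC154187.2 (r = 0.967), the ribosomal protein gene Rpl18 (0.92), the pseudogene Rpl27-ps3 (0.904) and Cyb5r3, a cytochrome b5 reductase (0.892). After removal of group means these were 0.964, 0.933, 0.929 and 0.898. For C4b they were Neurl3 (0.882), Txndc17 (0.872), Spi1, which encodes PU.1 (0.861), and Gabpa (0.844), and without group means 0.77, 0.526, 0.467 and 0.55. For C5ar1 they were Myh10 (0.965), Rela, a subunit of NF-kappaB (0.961), Zswim4 (0.959) and Samd4b (0.944), with 0.94, 0.969, 0.91 and 0.916 after removal of group means. For C3ar1 they were Capza2 (0.923), Atp6v1b2 (0.92), Tmem41b (0.913) and Slc30a1 (0.912), with 0.937, 0.907, 0.903 and 0.889. For C3 they were Samd9l (0.837), Fbxw11 (0.816), Rpap3-ps2 (0.779) and Zdhhc19 (0.778), with 0.408, 0.685, 0.568 and 0.439. The likeness to C1q, C3ar1 and C5ar1 was thus nearly as close among libraries of a group as over all libraries, whereas that to C4b and C3 was lower once group means were removed. Libraries of a group share their cells' source, and the points of 1 library share its depth and RNA quality, so these values describe these libraries only.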

How the data were processed

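The authors deposited TPM values, 1 line per gene symbol and 1 column per library, in a table named as filtered; the sources used here give no filter. The submitters' processing notes name Salmon 1.0.0, FastQC 0.11.8 and DESeq2 (no version), and the build GRCm38 (mm10). Per the labels' protocols, cDNA was amplified with the Ovation kit before low-input library preparation. Columns were matched to libraries by the labels' short names. The table holds 0 values equal to 0, so a gene at 0 in any library is not in it, and 19 symbols had become dates. Library totals were 956489 to 963145 TPM. Depth is unknown, so no counting interval was computed.

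Genes with at least 1 TPM in at least 3 libraries (13175) were fitted as log2(TPM + 1), with a pseudocount of 1, in limma 3.58.1 (R 4.3.3). The model had 4 group means over all 15 libraries and a trended prior, with 11 residual degrees of freedom, and tests were two-sided, for 8 comparisons. The fit was tested on simulated data with known changes. Genes were named by rule: the 7 members, any called gene of the other complement lists, the 3 highest of each list, and the 4 genes of closest pattern. 1 gene that the rule names is not reported here. The members, lists and tests were chosen with earlier results of these data known. Alternatives covered pseudocount, filter, scaling, weights, libraries entered and the replicate block. Figures used Python 3.11.15 and matplotlib 3.10.9.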

Additional observations from a re-analysis of the deposited data

Results flagged for a closer look

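C3 in PLX5622 3 was at 5.473 TPM, and its gap to the nearest PLX5622 library took 0.83 of the range of the 4 libraries, just above the critical value of 0.829. It was 1 of 14 sets of 4 or 5 libraries checked this way over the 7 genes, and chance marks about 1 in 20.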

How the results depend on the processing

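The number of the 7 genes called depended on the model. For PLX5622 against untreated old it was 1, and 0 with only the groups compared, with the replicate block or with young 1 and 2 left aside, 2 with weights by group or when AF-high 2 and 3 and AF-low 1 were set aside, 3 with array weights, and 0 to 2 when leaving out 1 library. For PLX5622 against AF-high it was 0, and 1 with quantile normalization or weights by group, 2 with array weights or with those 3 old libraries set aside, and 0 to 1 when leaving out 1 library. It was 0 for untreated old against young and 2 with array weights or weights by group, 0 for PLX5622 against young and 1 with either, 0 for AF-high against young and 1 with array weights, and 0 for PLX5622 against AF-low and 0 to 1 when leaving out 1 library. The causes were not tested. Over all genes, the count for PLX5622 against untreated old was 179, and 0 to 1042 under the alternatives; for PLX5622 against AF-high it was 83 and 0 to 441, and for untreated old against young 24 and 0 to 643.

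Of 1504 values (56 differences under up to 27 alternatives), 1426 kept direction and side of the threshold and 43 changed sign, all of them uncalled in the fit reported. C1qa between untreated old and young became 0.16 with array weights, 0.0474 with median centring, 0.29 with the 3 old libraries set aside, 0.20 with young 1 and 2 left aside and -0.13 to 0.13 when leaving out 1 library. With young 1 and 2 left aside C1qa was 0.0932 for AF-low and 0.0090 for PLX5622 against young, and C1qb -0.0091 for AF-low against young. For PLX5622 against young, median centring gave C1qc 0.0683 and C4b 0.0334, quantile normalization C4b 0.0440, and array weights C5ar1 -0.0234. C3 for AF-high against young was -0.0192 with a pseudocount of 0.1. Leaving out 1 library for AF-high against AF-low gave C1qa -0.0156 to 0.49, C1qb -0.0066 to 0.19, C1qc -0.0546 to 0.20, C4b -0.17 to 0.16 and C5ar1 -0.48 to 0.0242. It gave C1qa -0.13 to 0.37 and C3 -0.10 to 0.13 for AF-high against young, C1qb -0.0533 to 0.14 for AF-low against young, C1qa -0.20 to 0.0696 for PLX5622 against AF-low, and C4b -0.19 to 0.10 and C5ar1 -0.0521 to 0.0679 for PLX5622 against young. C3 was not tested with a filter at 5 TPM.

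The labels do not say whether same-numbered libraries share more than a number. Correlations of their deviations from group means were -0.0812 to 0.141, and with so few libraries per group these cannot decide it. With the replicate block, AF-high against AF-low gave C1qa -0.30 and C4b -0.43, AF-high against young gave C1qa -0.41, C3 -0.17 and C3ar1 -0.0190, and PLX5622 against young gave C5ar1 -0.0521. C4b for PLX5622 against untreated old was -1.15 (adjusted p = 0.182), Itgax for untreated old against young 1.48 (adjusted p = 0.373), and 0 of 13175 genes were called in either comparison.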
